A study of Mus musculus with 6 samples.

Results

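Eph receptors are the largest family of receptor tyrosine kinases, and the ephrins are their ligands. The 10 genes described here are 7 receptor genes (Epha1, Epha2, Epha3, Epha4, Ephb2, Ephb3 and Ephb4) and 3 ephrin genes (Efna1, Efnb1 and Efnb2). They were taken by their symbols from a table of 23951 genes, by a rule that names symbols, though earlier results of these data were known when they were chosen. The mouse has 22 Eph and ephrin genes in all, and the other 12 were used for comparison. Both ligand and receptor are held in the cell membrane, so that signalling needs contact between cells. Class A ephrins are tethered by a lipid anchor and bind mainly EphA receptors, whereas class B ephrins cross the membrane and bind mainly EphB receptors. The receptor-bearing cell responds through its kinase (forward signalling) and the ephrin-bearing cell through the ephrin (reverse signalling), and both change adhesion, repulsion and movement. In melanocytes and melanoma these genes are known for guiding neural crest migration and for roles in invasion and vessel contact.

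RNA was sequenced from 3 mouse melanoma lines with 2 libraries each. B16-F1 is a line of low metastatic potential bought from a cell repository. B16-F1R2, called the lymph-node line here, was established from a metastasis in a lymph node. B16-F1R2L, called the lung line, was established from a lung metastasis that in turn derived from a lymph node metastasis. All 3 lines were untreated and grown in the same medium. The B16 lines come from the C57BL/6 strain, and the labels give no other genotype. The metastasis-derived lines were both provided by an outside group, and effects of line and of source cannot be told apart. Nothing in the sources says that the 2 libraries of a line were separate cultures, so p-values measure only the spread between these libraries, which may be technical. Values are FPKM (fragments scaled to transcript length in kilobases and to 1000000 mapped reads), which can be compared between genes because length is divided out. Lines were compared on the log2(FPKM + 0.1) scale with limma, a linear model that pools the spread over genes, and a gene was called at a Benjamini-Hochberg adjusted p under 0.05 over the 11379 genes that reached 1 FPKM in 2 or more libraries. Fold changes on this scale understate the change of low genes. For 1 gene with 2 libraries in each line, the smallest two-sided p of an exact permutation test is 0.333, so every call rests on the pooled spread.

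The FPKM of the libraries summed to 596657 to 672794, and depth was estimated at 12500000 to 14700000 reads. All 7 melanocyte markers were present in every library. Their summed FPKM were 14970 and 15007 in B16-F1, against 7909 to 8125 in the lymph-node line and 8924 to 8933 in the lung line. Of the 7, limma called 6 lower and 0 higher in B16-F1R2, with 6 at an unadjusted p under 0.05. Of all tested genes, 27.2% were called lower and 28.2% higher in that comparison. In B16-F1R2L it called 6 markers lower and 1 higher, where 27.1% and 29.5% of all tested genes were called. The marker called higher there was Mitf (log2 fold change 0.40, adjusted p = 0.00315), which was not called in B16-F1R2 (-0.15, adjusted p = 0.106). Of the 6 endothelial markers, Cdh5, Kdr, Tek and Tie1 were listed at 0 in all 6 libraries, while the summed level, nearly all of it Pecam1, was 0 in B16-F1, 0.752 and 0.758 in the lymph-node line and 1.14 to 1.26 in the lung line. Of the 6 fibroblast markers, Dcn, Lum and Thy1 were listed at 0 throughout, and the sum, led by Col1a2, was 0.735 to 0.881 FPKM in B16-F1, 1.21 to 1.29 in the lymph-node line and 1.86 to 2.31 in the lung line. The summed immune markers ran from 1.02 to 2.85 FPKM and the epithelial ones from 0.383 to 0.662, with 3 and 1 of 6 genes at 0 throughout. The part of these marker levels in the Eph and ephrin values was not tested.

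Sequence upstream of the start was set beside the expression values because several of these genes were higher together in the metastasis-derived lines. RefSeq promoters matched all 10 genes (assembly GRCm38.p6, while the expression table was built on mm9), and the 250 bases before the start are shown for the 4 receptors that were called, with motif matches in capitals. Epha1 lies at chr6:42373269-42373518 on the minus strand, Epha3 at chr16:63864176-63864425 on the minus strand, Ephb2 at chr4:136836013-136836262 on the minus strand and Ephb4 at chr5:137349859-137350108 on the plus strand. Each is written in the direction of transcription.
Epha1: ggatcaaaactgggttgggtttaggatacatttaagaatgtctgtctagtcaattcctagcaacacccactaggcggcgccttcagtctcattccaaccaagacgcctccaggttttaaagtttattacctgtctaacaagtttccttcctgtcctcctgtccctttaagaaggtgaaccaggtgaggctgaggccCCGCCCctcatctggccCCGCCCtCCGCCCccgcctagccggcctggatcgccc
Epha3: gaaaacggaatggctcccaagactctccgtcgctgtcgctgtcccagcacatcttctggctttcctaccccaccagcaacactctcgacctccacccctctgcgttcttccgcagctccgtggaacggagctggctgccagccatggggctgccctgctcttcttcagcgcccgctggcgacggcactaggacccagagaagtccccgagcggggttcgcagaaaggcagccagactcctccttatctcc
Ephb2: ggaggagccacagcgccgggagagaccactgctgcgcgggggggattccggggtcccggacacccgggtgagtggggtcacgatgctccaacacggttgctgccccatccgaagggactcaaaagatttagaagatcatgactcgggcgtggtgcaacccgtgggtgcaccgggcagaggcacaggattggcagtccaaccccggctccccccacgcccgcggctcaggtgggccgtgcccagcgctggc
Ephb4: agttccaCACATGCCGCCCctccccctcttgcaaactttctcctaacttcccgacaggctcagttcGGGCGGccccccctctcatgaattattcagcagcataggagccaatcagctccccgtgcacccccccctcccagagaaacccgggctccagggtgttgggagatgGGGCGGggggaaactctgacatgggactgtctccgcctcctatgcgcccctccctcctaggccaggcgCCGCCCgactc

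The motifs searched on both strands were the E-box CACGTG (in 6.02% of 32851 promoter windows), the M-box core CATGTG (12.3%), which is contained in the site bound by the melanocyte factor MITF, the GC box GGGCGG (32.7%), the AP-1 site TGANTCA (6.75%) and the TATA element TATAAA (12.4%). Epha1 held 3 GC boxes, all within the stretch nearest the start. Ephb4 held 4 GC boxes and 1 M-box core, which joins a GC box at the left end of the window. Epha3 and Ephb2 held none of the 5 motifs. No motif was thus shared by the 4 windows, and a match or its absence describes only these letters. The windows of Efna1, the ephrin gene called higher, are not printed and held 1 and 2 GC boxes. Among family genes called lower against B16-F1, Ephb6 held 5 GC boxes, Efna5 held 4 and Efna4 held 0. The windows contained 54.4% (Epha1), 62.8% (Epha3), 68.4% (Ephb2) and 64.0% (Ephb4) G and C, against a median of 52.4% over all windows. They held 9, 16, 20 and 12 CpG dinucleotides against a median of 6.0. Family genes called lower against B16-F1 lay above both medians too, so these values did not set the 4 receptors apart. Ephb6 had 76.8% and 27 CpG, Efna5 74.8% and 32, and Efna4 54.4% and 7.

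Epha3 was the most abundant of the 10 genes in every library. It encodes a receptor for class A ephrins, with ephrin-A5 among its strongest ligands, and lies at chr16:63543364-63863984 (NCBIM37, the assembly also named mm9), on the minus strand with 17 exons. Its FPKM were 21.9 and 20.6 in B16-F1, 52.8 and 53.9 in the lymph-node line, and 56.4 and 61.8 in the lung line. Both metastasis-derived lines lay above B16-F1 with no overlap, and B16-F1R2L lay slightly above B16-F1R2, also without overlap. The mean rose 2.51-fold in B16-F1R2, a log2 fold change of 1.32 (standard error 0.059, 95% interval 1.18 to 1.47, limma adjusted p = 1.22e-05), and 2.78-fold in B16-F1R2L, with 1.47 (adjusted p = 7.42e-06). The mean Epha3 level stood above 82.5% of all genes in B16-F1, 92.2% in the lymph-node line and 93.2% in the lung line. About 1464 to 1632 reads stood behind the B16-F1 values and 4064 to 5137 behind the others, as estimated from FPKM, length and depth.

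Epha1, a class A receptor with restricted expression in epithelia, was low in B16-F1 and higher in the other lines. The gene lies at chr6:42308486-42323267 on the minus strand. Its FPKM were 0.215 and 0.501 in B16-F1, 1.77 and 2.26 in the lymph-node line, and 2.16 and 2.60 in the lung line. The B16-F1 values stood apart from all others, and the ranges of the metastasis-derived lines overlapped. The log2 fold change was 2.27 (standard error 0.32, limma adjusted p = 0.00144) in B16-F1R2 and 2.50 (adjusted p = 0.000945) in B16-F1R2L. The ratio of mean FPKM was 5.63 and 6.64. Epha1 passed the filter only through the metastasis-derived lines, so it had to differ from B16-F1. The size depended on the scale, since the B16-F1R2 value was 1.15 with a pseudocount of 1 and 1.24 after quantile normalization. Of the 3273 exon bases of Epha1, 160 (4.89%) overlap Zyx on the other strand. Zyx had 66.4 and 67.2 FPKM in B16-F1 and 48.4 to 59.5 in the other lines, so it was lower where Epha1 was higher. Whether counting used strand is not given in the sources used here, and without strand the reads of these bases cannot be told apart.

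Epha2 and Epha4 stayed under 1 FPKM in every library and were not tested in the filtered table. Epha2, a receptor for ephrin-A1 that is widely studied in tumour cells, had 0.0918 and 0.120 FPKM in B16-F1, 0.641 and 0.667 in the lymph-node line, and 0.648 and 0.492 in the lung line. The B16-F1 values lay below all others, with about 5 and 6 reads against 28 to 38. Epha4, which binds ephrins of both classes, had 0.131 and 0.319 FPKM in B16-F1, 0.0430 and 0.0511 in the lymph-node line, and 0.0556 and 0.0505 in the lung line. Its B16-F1 values lay above all others, at about 11 and 25 reads against 4 to 5, which is the opposite order to Epha2. When all 16483 genes above 0 in any library were tested, limma called Epha2 higher in B16-F1R2 (log2 fold change 1.88, adjusted p = 0.00186) and B16-F1R2L (1.70, adjusted p = 0.00248), where 21.3% and 23.2% of genes were called higher. It called Epha4 lower, with -1.08 (adjusted p = 0.0413) and -1.03 (adjusted p = 0.0471), where 19.3% and 19.0% were called lower.

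Of the class B receptors, Ephb4 was by far the most abundant. EphB4 is the principal receptor of ephrin-B2 and is known from veins. The gene lies at chr5:137791337-137819897 on the plus strand, and 33 of its exon bases (0.711%) overlap Zan, which was at or under 0.171 FPKM. The FPKM of Ephb4 were 9.39 and 9.91 in B16-F1, 15.0 and 15.9 in the lymph-node line, and 14.2 and 13.0 in the lung line. No 2 of the lines overlapped, and the order was B16-F1, B16-F1R2L and B16-F1R2 from low to high. The log2 fold change was 0.67 (standard error 0.071, limma adjusted p = 0.00042) in B16-F1R2 and 0.49 (adjusted p = 0.00161) in B16-F1R2L. In means these are 1.6-fold and 1.41-fold, the smallest of the called changes among the 10 genes.

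Ephb2 had the widest difference of line means among the 10 genes on the log2(FPKM + 0.1) scale. Epha3 and Epha1 exceeded it with a pseudocount of 1 and after quantile normalization. In B16-F1R2L, Epha1 exceeded it without B16-F1 replicate 2 (2.97 against 2.77) or B16-F1R2L replicate 1 (2.63 against 2.58). Efna1 exceeded it in B16-F1R2L without B16-F1 replicate 1 (2.61 against 2.52). Ephb2 encodes a receptor of class B ephrins known for positioning cells in the intestinal crypt, and lies at chr4:136203454-136391903 on the minus strand. Its FPKM were 0.122 and 0.165 in B16-F1, 1.46 and 1.39 in the lymph-node line, and 1.48 and 1.35 in the lung line. The B16-F1 values were far below the others, with about 8 and 10 reads against 94 to 96, and the metastasis-derived lines overlapped. The log2 fold change was 2.65 (standard error 0.21, limma adjusted p = 0.000112) in B16-F1R2 and 2.64 (adjusted p = 0.000112) in B16-F1R2L. The ratio of means was 9.94 and 9.89. Ephb2 passed the filter only through the metastasis-derived lines, so it had to differ from B16-F1. With a pseudocount of 1 the B16-F1R2 value was 1.09, with 0.01 it was 3.24, and with quantile normalization 1.15. Ephb3, a close relative of Ephb2, was at or next to 0 everywhere. Its highest value was 0.0227 FPKM, about 1 read, and a B16-F1 and a B16-F1R2L library listed it at 0, so no difference was detectable at this depth.

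Among the 3 ephrin genes, Efna1 was the one called. Ephrin-A1 is a ligand of EphA2 and other EphA receptors, first found as a gene induced by tumour necrosis factor. The gene lies at chr3:89075655-89085064 on the minus strand. Its FPKM were 0.635 and 0.199 in B16-F1, 1.03 and 1.42 in the lymph-node line, and 1.99 and 1.498 in the lung line. All 3 lines stood apart in this order, although only about 4 to 39 reads stood behind each value. The log2 fold change was 1.48 (standard error 0.43, 95% interval 0.44 to 2.52, limma adjusted p = 0.026) in B16-F1R2 and 1.96 (0.92 to 3.0, adjusted p = 0.00879) in B16-F1R2L. Efna1 passed the filter only through the metastasis-derived lines, so it had to differ from B16-F1. The B16-F1R2 call was lost without B16-F1 replicate 2 (0.83, limma adjusted p = 0.0649), without B16-F1R2 replicate 1 (1.69, adjusted p = 0.0615) or replicate 2 (1.27, adjusted p = 0.125), without the filter on low values (1.48, adjusted p = 0.0597) and after quantile normalization (0.35, adjusted p = 0.419). The B16-F1R2L call was lost without B16-F1R2L replicate 1 (1.77, limma adjusted p = 0.0526) and after quantile normalization (0.75, adjusted p = 0.11).

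Efnb1 and Efnb2 encode transmembrane ligands, ephrin-B1 being known from craniofacial development and ephrin-B2 from arteries. Efnb1 had 1.87 and 1.53 FPKM in B16-F1, 1.87 and 1.11 in the lymph-node line, and 1.42 and 1.24 in the lung line. The B16-F1R2 libraries covered the range of the others, while the B16-F1R2L values lay below those of B16-F1. The log2 fold changes were -0.21 (95% interval -0.82 to 0.40, limma adjusted p = 0.513) and -0.32 (-0.93 to 0.29, adjusted p = 0.314) against B16-F1. After quantile normalization Efnb1 was called lower in B16-F1R2L (-1.03, limma adjusted p = 0.0343). Efnb2 stayed between 0.0977 and 0.199 FPKM, about 5 to 9 reads. Its B16-F1 values of 0.199 and 0.191 lay above those of B16-F1R2 (0.105 and 0.157) and B16-F1R2L (0.154 and 0.0977), and without the filter limma gave -0.36 (adjusted p = 0.245) and -0.40 (adjusted p = 0.198). Ephb4, the main receptor of ephrin-B2, was at 9.39 to 15.9 FPKM in the same libraries.

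**Figure D1:**
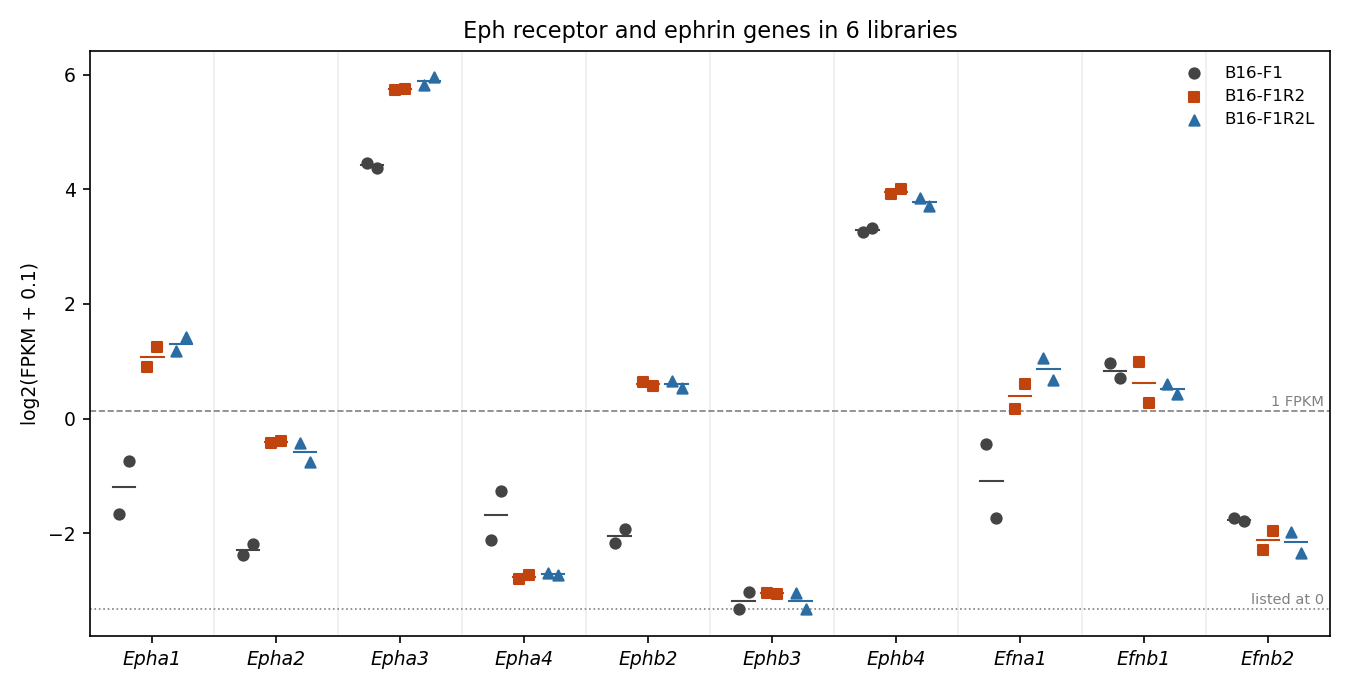
Levels of the 10 genes as log2(FPKM + 0.1) in each of the 6 libraries, with 1 point per library and a short line at the mean of each line. Epha3 and Ephb4 sit at the top in all lines, and Epha1, Epha2, Ephb2 and Efna1 are higher in both metastasis-derived lines than in B16-F1, while Epha4 is lower.

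Read as levels within B16-F1, the 10 genes followed the order Epha3, Ephb4, Efnb1, Efna1, Epha1, Epha4, Efnb2, Ephb2, Epha2 and Ephb3. Neighbours overlapped in their libraries from Efna1 through Epha1 and Epha4 to Efnb2, and the others stood apart. In B16-F1R2 the order was Epha3, Ephb4, Epha1, Efnb1, Ephb2, Efna1, Epha2, Efnb2, Epha4 and Ephb3. Here Epha1 overlapped Efnb1, Efnb1 overlapped Ephb2 and Ephb2 overlapped Efna1. In B16-F1R2L Efna1 came after Epha1, followed by Ephb2, Efnb1, Epha2, Efnb2, Epha4 and Ephb3, and of these neighbours Ephb2 and Efnb1 overlapped. Epha3 and Ephb4 held the leading places in all lines, and Epha1 stood above Efnb1 in both metastasis-derived lines but below it in B16-F1.

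Of the 10 genes, 6 passed the filter. In B16-F1R2 against B16-F1, limma called 5 of them higher and 0 lower, with the same count of 5 at an unadjusted p under 0.05, where 28.2% of all tested genes were called higher and 27.2% lower. When a log2 fold change of 1 or more was required too, 4 were called higher, against 7.20% of all genes higher and 2.88% lower. In B16-F1R2L against B16-F1 the counts were again 5 and 4, where 29.5% and, with the fold limit, 8.41% of all genes were higher, and 27.1% and 2.28% lower. These comparisons share the B16-F1 libraries and are not independent. The median log2 fold change of the 6 genes was 1.40 and 1.72, beside 0.00462 and 0.0166 over all tested genes. Epha1, Ephb2 and Efna1 passed the filter only through the lines in which they were high and had to differ, so these counts and medians are no support for a change of the family. Epha3, Ephb4 and Efnb1 passed in every line, and the first 2 of these rose.

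Between the metastasis-derived lines, which have different sites of origin, no change was called for these genes. In B16-F1R2L against B16-F1R2, limma called 0 of the 6 genes, where 12.1% of all tested genes were higher and 10.5% lower, and 2 had an unadjusted p under 0.05. With libraries rescaled to a sum of 1000000, 2079 of all genes were called higher and 489 lower, in place of 1378 and 1190, and still 0 of the 6. The 2 genes were Epha3, with a log2 fold change of 0.15 (95% interval 0.0034 to 0.29, limma adjusted p = 0.122), and Ephb4, with -0.18 (-0.35 to -0.010, adjusted p = 0.113). The intervals were -0.51 to 0.49 for Ephb2, -0.55 to 1.01 for Epha1, -0.72 to 0.50 for Efnb1 and -0.56 to 1.52 for Efna1. A 2-fold difference was thus outside the interval for Epha3, Ephb4, Ephb2 and Efnb1, but not for Epha1 and Efna1.

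**Figure D2:**
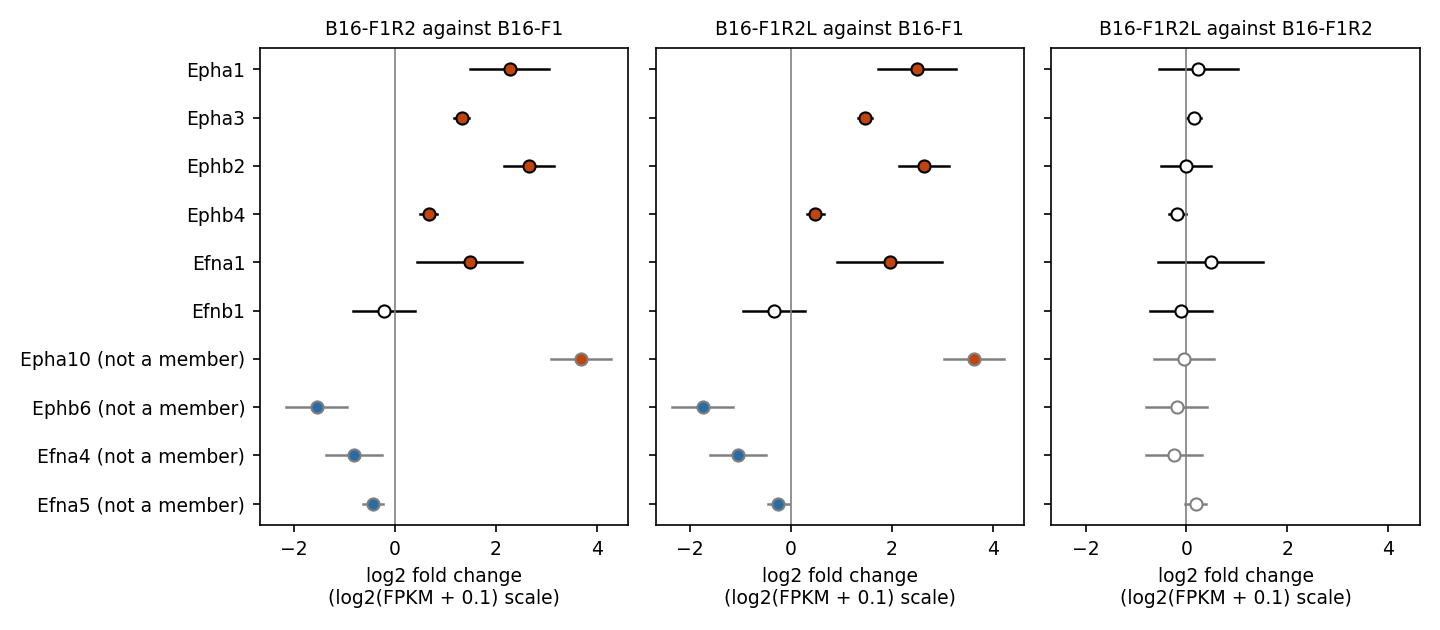
Log2 fold changes with 95% intervals for the 6 tested genes and the 4 other tested Eph and ephrin genes, in the 3 comparisons of lines. Filled points were called by limma, red higher and blue lower, and no point is filled in the comparison of B16-F1R2L with B16-F1R2.

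**Figure D3:**
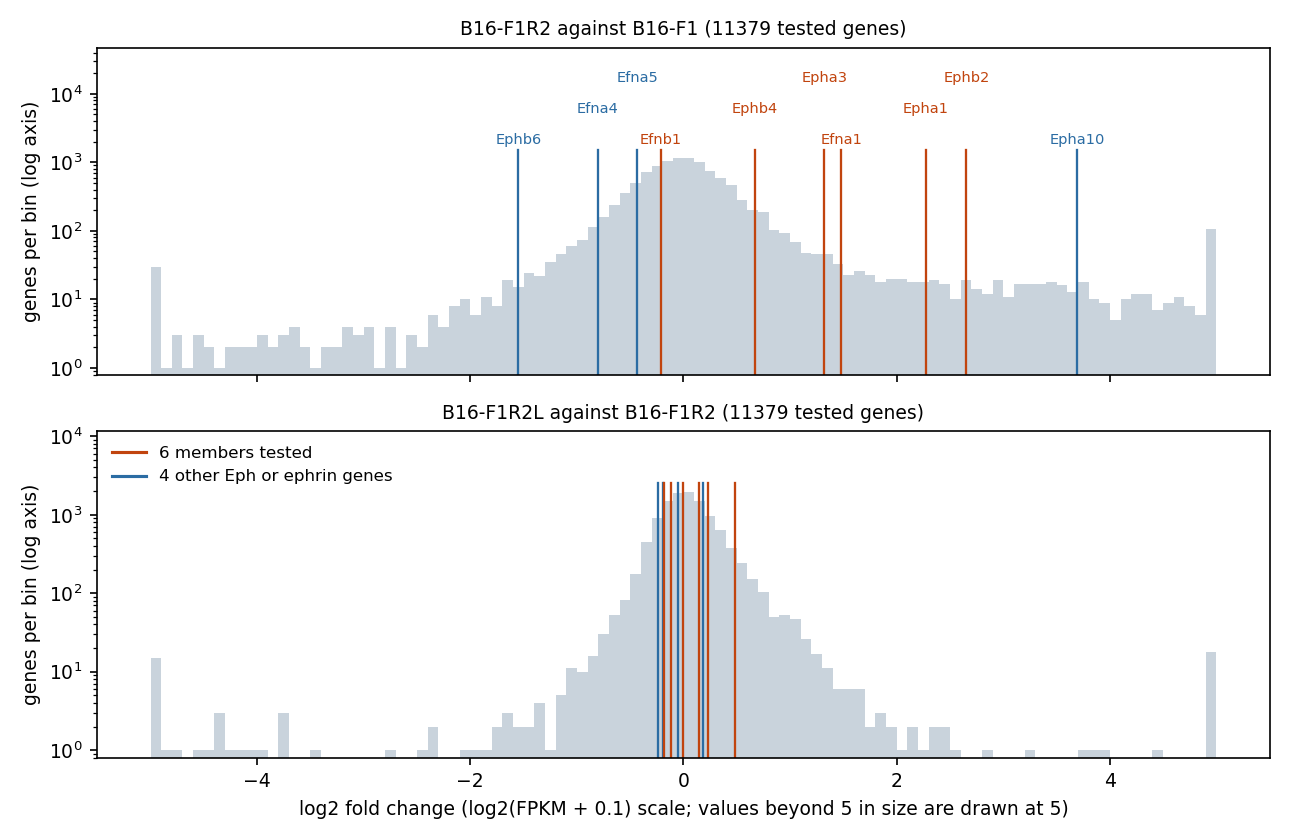
Distribution of log2 fold changes over the 11379 tested genes, on a log axis of genes per bin, for B16-F1R2 against B16-F1 (top) and B16-F1R2L against B16-F1R2 (bottom), with red lines at the 6 genes and blue lines at the 4 other family genes. In B16-F1R2 against B16-F1 the family spreads from -1.55 (Ephb6) to 2.65 (Ephb2), with Epha10 farther right at a place that depends on the pseudocount, and between the metastasis-derived lines it lies within -0.24 to 0.48.

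The family members outside the 10 genes included some that fell. Of the 12, 4 were tested. Epha10, which encodes a receptor without kinase activity, was listed at 0 in both B16-F1 libraries and had 1.16 and 1.22 FPKM in the lymph-node line and 1.06 and 1.23 in the lung line. It was called higher in both (limma adjusted p = 6.27e-05 and 6.46e-05), and no fold is given against a line at 0. Ephb6, a receptor that likewise lacks kinase activity, went the other way, with 1.40 and 1.40 FPKM in B16-F1, 0.331 and 0.508 in the lymph-node line, and 0.353 and 0.344 in the lung line (log2 fold change -1.55, limma adjusted p = 0.00246, and -1.74, adjusted p = 0.0015). Epha10 passed the filter only through the metastasis-derived lines and Ephb6 only through B16-F1, so both had to differ and their calls are no support for a change of the family. The class A ephrin gene Efna4, 52248 bases from Efna1 on chromosome 3, had 4.43 and 5.34 FPKM in B16-F1, 2.19 and 3.44 in the lymph-node line, and 2.58 and 2.06 in the lung line. Efna4 was called lower in both (-0.80, limma adjusted p = 0.0241, and -1.05, adjusted p = 0.00875), opposite in sign to Efna1, and lost the calls without B16-F1 replicate 2 (-0.67, adjusted p = 0.124, and -0.91, adjusted p = 0.0574). It also lost them without B16-F1 replicate 1 (-0.94, limma adjusted p = 0.0526) or B16-F1R2 replicate 1 (-0.49, adjusted p = 0.0961), or without the filter (-0.80, adjusted p = 0.0575), in the first comparison, and without B16-F1R2L replicate 2 (-0.89, adjusted p = 0.0565) in the other. Efna5 had 7.77 and 8.38 FPKM in B16-F1, 5.86 and 6.04 in the lymph-node line, and 6.41 and 7.17 in the lung line. Its fall by 0.43 on the log2 scale in B16-F1R2 was called (limma adjusted p = 0.00559). Its value in B16-F1R2L, -0.25 (adjusted p = 0.0456), lost its call under 9 alternatives, among them libraries rescaled to a sum of 1000000 (-0.15, adjusted p = 0.279). The other 8 family genes stayed under the filter, and of these Epha6 and Ephb1 were listed at 0 in all libraries.

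Summed over the family, receptor RNA was higher in the metastasis-derived lines while ephrin RNA was lower. The 14 receptor genes summed to 34.3 and 33.9 FPKM in B16-F1, 73.9 and 76.5 in the lymph-node line, and 77.1 and 81.6 in the lung line. Epha3 made up 60.9% to 63.8% of this sum in B16-F1, 70.4% to 71.5% in the lymph-node line and 73.2% to 75.7% in the lung line. The 8 ephrin genes summed to 16.2 and 16.9 FPKM in B16-F1, 12.3 and 13.0 in the lymph-node line, and 13.5 and 13.1 in the lung line, with Efna5 holding 46.6% to 54.7%. Neither sum overlapped between B16-F1 and the other lines. These sums were not tested, and the ephrin sum was led by genes outside the 10, since Efna1, Efnb1 and Efnb2 were at or under 1.99 FPKM in every library.

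**Figure D4:**
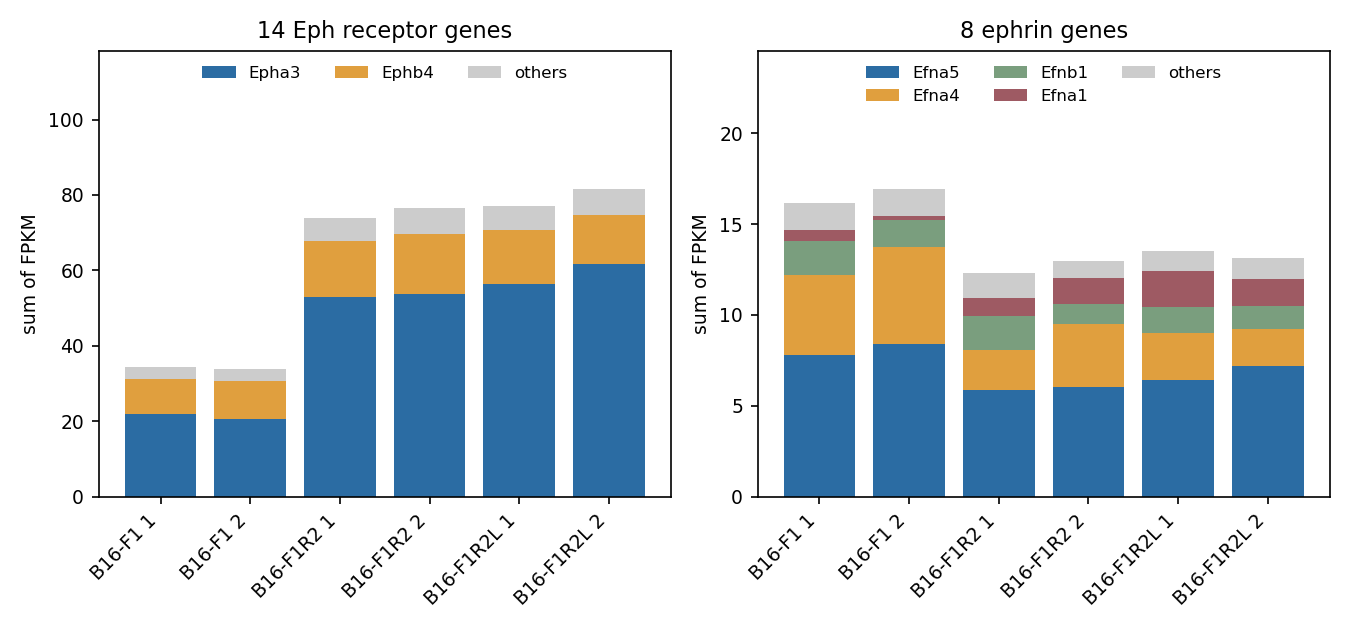
Summed FPKM of the 14 Eph receptor genes (left) and the 8 ephrin genes (right) in each library, with bars from 0 split by gene. The receptor bars run from 33.9 to 81.6 and are mostly Epha3, and the ephrin bars run from 12.3 to 16.9 and are led by Efna5.

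Genes that act with Eph receptors and ephrins were followed in 3 lists of 33 genes, of which 27 were tested. In B16-F1R2 against B16-F1, 6 rose, 7 fell and 14 were not called, with a median log2 fold change of -0.00824, where 28.2% and 27.2% of all genes rose and fell. In B16-F1R2L against B16-F1, 5 rose, 7 fell and 15 were not called, with a median of -0.0201, where 29.5% and 27.1% of all genes rose and fell. Between the metastasis-derived lines 5 rose (Fyn, Rasa1, Src, Pick1 and Rgs3) and 1 fell (Inppl1), where 12.1% of all genes rose and 10.5% fell, and each of these lost its call under 1 to 11 alternatives. The gene passing the fold limit in both comparisons against B16-F1 was Ptprf. It encodes a receptor tyrosine phosphatase that acts on Eph receptors, and had 0.0118 and 0.0247 FPKM in B16-F1, 2.26 and 2.65 in the lymph-node line, and 2.90 and 3.05 in the lung line (log2 fold change 4.43, limma adjusted p = 1.03e-05, and 4.70, adjusted p = 7.42e-06). With so little in B16-F1, its size ran from 1.76 to 6.48 over the pseudocounts 1 and 0.01, and it passed the filter only through the metastasis-derived lines.

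Among the 12 tested kinases and adaptors of forward signalling, limma called 0 higher and 4 lower in B16-F1R2 (Src, Abl1, Abl2 and Grb2), with 5 at an unadjusted p under 0.05, and 1 rose (Fyn) and 4 fell (Src, Abl1, Abl2 and Pik3r1) in B16-F1R2L. Genes of these 3 lists other than Ptprf were named after their values were seen. The counts of each list stand beside 28.2% of all genes higher and 27.2% lower in the lymph-node line, and 29.5% and 27.1% in the lung line, and a share near these is no result about the list. Src, a kinase that Eph receptors engage, had 31.4 and 32.6 FPKM in B16-F1, 17.1 and 17.3 in the lymph-node line, and 22.9 and 20.7 in the lung line, with log2 fold changes of -0.89 and -0.55, so it lay between the other lines in the lung line. Of the 8 tested phosphatases, ligases and SAM domain partners, 3 rose (Ptprf, Acp1 and Inppl1) and 2 fell (Anks1 and Ptpn11) in B16-F1R2, and 1 rose (Ptprf) and 2 fell (Anks1 and Ptpn11) in B16-F1R2L. Anks1, which encodes a SAM domain partner of EphA receptors, had 8.87 and 9.58 FPKM in B16-F1 and 4.44 to 5.02 in the other lines (log2 fold changes -0.95 and -0.90). Of the 7 tested proteases and PDZ partners, 3 rose and 1 fell in each comparison. Pard6b and Pick1 rose in both, Tiam2 in B16-F1R2 and Rgs3 in B16-F1R2L. The one that fell was Sdcbp, which encodes syntenin, a PDZ protein that binds class B ephrins, with 316 and 318 FPKM in B16-F1 and 170 to 181 in the other lines (-0.88 and -0.84). The polarity gene Pard6b rose, from 1.26 and 1.39 FPKM in B16-F1 to between 2.29 and 2.70 in the other lines (0.92 and 0.79), and its lung-line call was lost after quantile normalization (0.26, limma adjusted p = 0.138). Src, Ptprf, Anks1 and Sdcbp kept their calls against B16-F1 under the other pseudocounts, filters, scalings and fits that tested them and with any library left out, while with the limit of 1 on the log2 fold change Ptprf alone kept its call, and many of the smaller changes lost theirs under 1 or more.

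**Figure D5:**
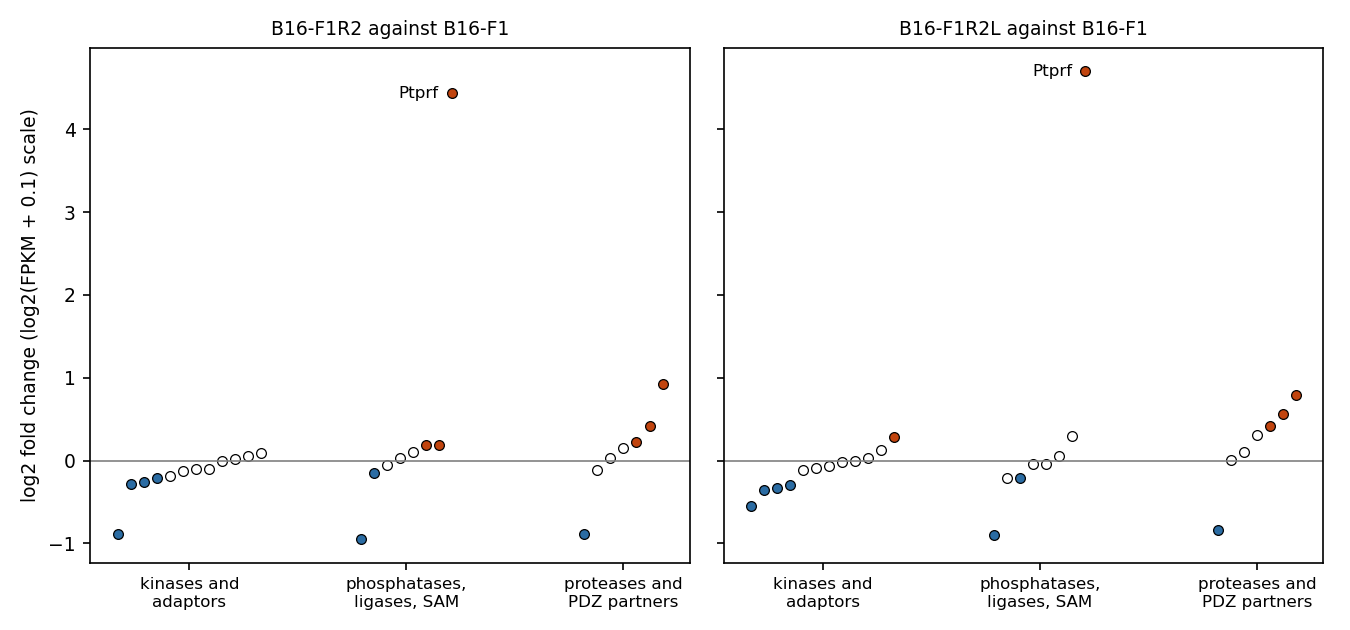
Log2 fold changes of the 27 tested pathway genes in 3 lists, for B16-F1R2 and B16-F1R2L against B16-F1, with 1 point per gene and filled points called by limma (red higher, blue lower). Ptprf stands far above the rest at 4.43 and 4.70, and all other points lie within 1 of the zero line.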

How the data were processed

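Polyadenylated RNA of the 3 lines was sequenced by the authors as single 50-base reads, from a stranded kit. Reads were aligned to mm9 with 2 mismatches and up to 20 positions allowed. The submitters' processing notes name FastQC 0.10.1, TopHat2 2.0.10, Bowtie 1.0.0, SAMtools 0.1.1.9, DESeq2 and Cuffnorm. The authors deposited FPKM values in 1 table with a column per library. The gene annotation and the use of strand in counting are not given in the sources used here. Because FPKM are not counts, no count test was run.

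From the FPKM, log2(FPKM + 0.1) was computed and fitted over all 6 libraries, with R 4.3.3 and its package limma 3.58.1 (eBayes used a mean-variance trend). Genes that reached 1 FPKM in 2 or more libraries were tested, with Benjamini-Hochberg adjustment over them. Groups came from the labels. The table gives no read totals, so depth was estimated by taking the lowest FPKM of 1-transcript genes of 1500 bases or more as 1 read, and approximate reads carry no interval. Gene positions and lengths came from NCBIM37 with GENCODE annotation, and promoters from RefSeq. Shared sequence was counted in stretches of 50 bases, and of the 10 genes only Ephb3 shared any with another gene (6 of 5710, 0.105%).

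Named were the 10 genes, the 12 other family genes, at most 8 pathway genes per comparison (called, at least 1 in log2 size and not overlapping between lines, which Ptprf met) and the 3 tested genes nearest in pattern to the gene of highest mean and to that of widest range. Other pathway genes were named after their values were seen. A further list of pathway genes is not reported here. Members and lists were chosen with earlier results of these data known. Steps were tested on simulated data. Alternatives were pseudocounts of 1 and 0.01, no filter or 5 FPKM, 3 scalings, no trend, the 4 libraries of a comparison, a replicate block, a fold limit and each library left out. Python 3.11.15, numpy 2.4.6, pandas 2.3.3 and matplotlib 3.10.9 served for other steps.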

Additional observations from a re-analysis of the deposited data

How the results depend on the processing

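With a filter of 5 FPKM, 2 members were called in B16-F1R2 and 2 in B16-F1R2L against B16-F1, since Epha3 and Ephb4 alone remained tested. At that filter 58.2% and 58.7% of all tested genes were called. With each library left out in turn the counts stayed between 4 and 5, and between the metastasis-derived lines at 0. No paired sampling is stated. Deviations of same-numbered libraries correlated at 0.0519, -0.102 and 0.0789. With the replicate block the counts stayed 5, 5 and 0, where 54.3%, 55.6% and 20.4% of all tested genes were called. Directions turned only for values that were not called. In B16-F1R2 against B16-F1, Efnb1 ran from -0.56 to 0.14 with a library left out, turning without B16-F1R2 replicate 2. In B16-F1R2L against B16-F1R2, rescaling to 1000000 turned Ephb2 to 0.0949 and Epha10 to 0.0476, and quantile normalization turned Anks1 to -0.0773. With a library left out there, the ranges were -0.0692 to 0.0517 for Ephb2, -0.463 to 0.237 for Efnb1, -0.153 to 0.046 for Epha10, -0.438 to 0.0562 for Ephb6, -0.557 to 0.0747 for Efna4 and -0.0359 to 0.138 for Anks1. The cause was not tested. Rescaling moved the median of all genes to 0.129 between the metastasis-derived lines, and to 0.118 in B16-F1R2L against B16-F1, with 4075 and 2043 in place of 3361 and 3086. Between the metastasis-derived lines 923 genes were higher and 743 lower without a filter, 1091 and 650 without a trend, and 874 and 644 with 4 libraries, and with a library left out 297 to 904 were higher and 140 to 991 lower. Src, called higher there (0.34, limma adjusted p = 0.0163), was not called without either B16-F1R2 library. Depth limits Ephb3, Efnb2, Epha4, Epha2 and Efna1, which rest on few reads, and Ephb2 and Epha1 in B16-F1.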

Other observations

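The tested genes whose pattern over the 6 libraries lay nearest to Epha3, by Euclidean distance of centred log2 values, were C920009B18Rik (0.101), Ktn1 (0.148) and Maml2 (0.16). Ktn1, which encodes a kinesin-binding membrane protein, had 20.1 and 18.7 FPKM in B16-F1, 43.6 and 46.4 in the lymph-node line, and 48.2 and 50.6 in the lung line. Nearest to Ephb2 were Abcb9 (0.183), Dmpk (0.2) and Mbp (0.229). Mbp, the gene of myelin basic protein, had 95.6 and 94.6 FPKM in B16-F1 and 559 to 582 in the other lines.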
